A study of Rattus norvegicus with 6 samples.

Results

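The genes described here are 41 targets of the transcription factor NRF2 and genes of glutathione and thioredoxin metabolism, measured in the renal cortex of rats dosed with tricresyl phosphate. This compound is a triaryl phosphate ester found in lubricants, plastics and flame retardants. The members were chosen by function: regulators of NRF2, glutathione supply, glutathione and thioredoxin reduction, glutathione peroxidases, glutathione transferases, NADPH supply, and enzymes that act on quinones, carbonyls and epoxides. An array probe was matched to 40 of the 41, Pgd being the exception, and 38 were bright enough to be tested among 31637 genes in all. Each of the 6 male Sprague-Dawley rats, bought at 5 weeks of age, gave 1 microarray. The 3 control animals received the vehicle corn oil for 4 weeks, and the other 3 received tricresyl phosphate at 200 mg/kg/day over the same time. The replicates are therefore separate animals, and every level below is the log2 of a spot's signal relative to its array's 75th percentile, so that a difference of 1 is a 2-fold change.

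NRF2, encoded by Nfe2l2, is held in the cytoplasm and marked for degradation by its inhibitor KEAP1. When electrophiles or oxidants modify cysteines of KEAP1, NRF2 escapes degradation, enters the nucleus, pairs with small MAF proteins and binds antioxidant response elements near its target genes. Those targets make glutathione, keep it and thioredoxin reduced, conjugate reactive compounds to glutathione, and supply the NADPH that these steps consume. In the kidney the proximal tubule carries much of this chemistry and breaks down filtered glutathione at its brush border.

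To show the sequence through which NRF2 acts, the core letters of the antioxidant response element, TGACNNNGC, were searched on both strands of the RefSeq promoter windows of assembly GRCr8, each spanning 250 bases before to 50 bases after a gene's start. A window was found for 37 of the 41 members, and 10 of the 37 (27%) held a match, against 12.1% of all 33469 windows. Counted by window, 10 of 42 member windows (23.8%) held one. In 8 of the 10 genes a match lay before the start, and for 6 of them, chosen because they stand in different steps of the pathway, the stretch from 60 bases before the match up to the start or 60 bases after the match is shown 5′ to 3′ on the gene's strand, with the match in capitals.
Gclm, chr2:213031903-213032031, plus strand: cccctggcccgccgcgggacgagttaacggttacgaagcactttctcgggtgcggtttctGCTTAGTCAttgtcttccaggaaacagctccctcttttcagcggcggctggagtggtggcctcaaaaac
Txnrd1, chr7:22755914-22756042, minus strand: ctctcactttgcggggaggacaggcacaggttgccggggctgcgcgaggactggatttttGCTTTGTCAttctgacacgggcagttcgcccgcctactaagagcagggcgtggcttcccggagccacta
Prdx1, chr5:135383711-135383839, plus strand: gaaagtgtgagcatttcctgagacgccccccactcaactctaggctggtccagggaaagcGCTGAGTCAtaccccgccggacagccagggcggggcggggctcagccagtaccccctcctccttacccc
Gpx2, chr6:101230034-101230106, minus strand: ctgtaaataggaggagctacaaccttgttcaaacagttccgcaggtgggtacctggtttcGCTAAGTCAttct
Gstp1, chr1:210769706-210769826, minus strand: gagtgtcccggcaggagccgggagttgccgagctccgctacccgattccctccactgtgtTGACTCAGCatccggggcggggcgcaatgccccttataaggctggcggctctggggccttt
Ephx1, chr13:95263118-95263234, minus strand: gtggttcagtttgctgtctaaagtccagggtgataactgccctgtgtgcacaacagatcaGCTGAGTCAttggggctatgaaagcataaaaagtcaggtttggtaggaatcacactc
The match lies 172 to 164 bases before the start in Gclm, 78 to 70 in Txnrd1, 135 to 127 in Prdx1, 13 to 5 in Gpx2, 61 to 53 in Gstp1 and 57 to 49 in Ephx1. In Gstp1 it reads TGACTCAGC on the gene's strand, and in the other 5 genes it stands on the opposite strand. The matches of Ephx1, Gstp1 and Prdx1 overlap the letters TGANTCA, the core of an AP-1 site. Gsta3 and Gstm5 also held a match before the start, and Gsta2 and Nfe2l2 held one after it. Of the 62 further pathway genes with a window, 15 (24.2%) held a match. A match describes letters in a window and not a bound site, and the absence of one says only that these letters are not in that window.

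Among the 38 tested genes, 19 had a higher and 19 a lower mean with tricresyl phosphate, over differences from −0.38 to 0.27, and none passed the threshold of an adjusted limma p under 0.05. The smallest adjusted p of a member was 0.811. Of all genes tested, 0% passed that threshold. At an unadjusted limma p under 0.05 stood 2 of the 38 members, Cbr3 higher and Gsta4 lower, which is 5.26% of them. Over all genes the share was 5.49%, made up of 1.63% higher and 3.86% lower. The median difference was −0.02 over the members and −0.04 over all genes, of which 59.2% had a lower mean. Groups that did not overlap were seen in 2 members that were higher, Keap1 and Cbr3, against a background of 3.84%, and in 1 that was lower, Akr7a3, against 7.94%. With 38 genes these shares lie near the background.

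**Figure D1:**
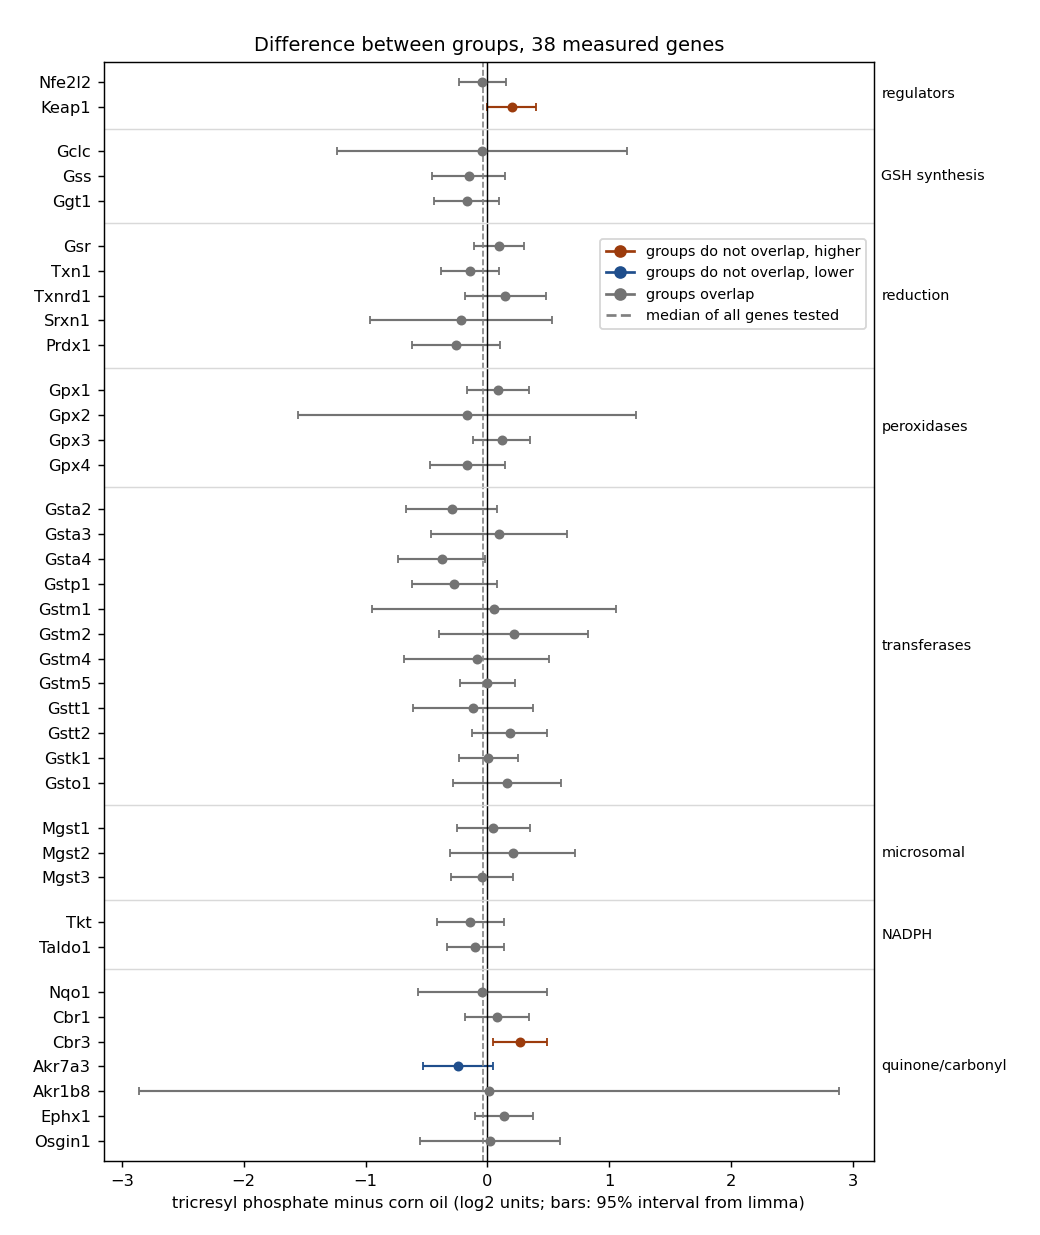
Difference between tricresyl phosphate and corn oil (log2 units, x axis) for the 38 tested genes, grouped by role, with the 95% interval of the limma fit as a bar and the median of all genes as a dashed line. The points lie between −0.38 and 0.27, the intervals of Cbr3 and Gsta4 alone leave out 0, and the interval of Akr1b8 is the widest, from −2.86 to 2.88.

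Some libraries stood apart from the others. Of 18 hepatocyte genes 16 were measured, and the summed level of these 16, in multiples of the array's 75th percentile, ranged from 20.8 to 36.7 in the corn oil animals and from 21.8 to 28.8 in the treated ones. It was highest in corn oil animal 2 and in tricresyl phosphate animal 3, while Cps1 and Tat were not bright enough to be tested. Alb, which encodes serum albumin, was at −2.47, 2.62 and −1.61 in corn oil animals 1 to 3 and at −0.11, −0.15 and 2.21 in tricresyl phosphate animals 1 to 3. Among the other hepatocyte genes, Apoc3 was lowest in corn oil animal 2 and tricresyl phosphate animal 3, at 2.78 and 2.74. Fga, Fgb and Tf did not share the highest animals of Alb. Slc7a13, a transporter of the S3 segment of the proximal tubule, had the same highest animals as Alb, with 1.99, 4.52 and 2.79 against 2.70, 2.99 and 3.97. Of the 5 S3 markers, Slc22a7 shared them, while Slc22a13, Slc5a8 and Slc3a1 did not, and the summed S3 level was 235 in corn oil animal 2 but 195 in tricresyl phosphate animal 3, within the 187 to 223 of the other animals. Corn oil animal 1 was alone on its slide and scan, and the other 5 arrays shared another. Differences are given again without the pair, corn oil animal 2 and tricresyl phosphate animal 3. This was done where leaving the pair out moves the printed difference of a gene's main probe by over 1.5 times, Gsta5 excepted. The main probe is the usable one with the highest mean. Differences of further probes are not given again, though some of them move as much. All 9 proximal tubule markers were measured in every animal, with a summed level of 1244 to 1420, as the label of renal cortex has it. In such bulk samples fewer cells of a type and less RNA per cell cannot be told apart.

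The regulator and its inhibitor varied little within groups. Nfe2l2 was at 3.77, 3.86 and 3.80 in corn oil animals 1 to 3 and at 3.80, 3.72 and 3.78 in tricresyl phosphate animals 1 to 3. The groups overlapped, and the difference was −0.04 ± 0.08 (SE) with an adjusted p of 0.923. Its range over the 6 animals was 1.1-fold, and 98.4% of all genes had a larger SD within groups. A second Nfe2l2 probe differed by −0.17, and the mean over both probes by −0.11. Without the pair the difference was −0.025, and quantile normalization gave the opposite sign, 0.03. Keap1 was at 0.20, 0.30 and 0.29 with corn oil and at 0.43, 0.44 and 0.52 with tricresyl phosphate. Every treated animal lay above every control. The means were 0.27 ± 0.06 (SD, n = 3) and 0.46 ± 0.05 (SD, n = 3), a difference of 0.20 ± 0.08 (SE), 1.15-fold, with an unadjusted limma p of 0.0506 and an adjusted p of 0.811. Without corn oil animal 2 and tricresyl phosphate animal 3 the Keap1 difference was 0.19, and on the shared slide it was 0.17.

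All 3 tested genes of glutathione supply had a lower mean with tricresyl phosphate, with a median difference of −0.15. Gclc encodes the catalytic subunit of glutamate-cysteine ligase, the enzyme that sets the rate of glutathione synthesis. Its level was 4.12, 5.65 and 4.47 in the corn oil animals and 4.10, 4.63 and 5.39 in the treated ones. The highest values belonged to corn oil animal 2 and tricresyl phosphate animal 3, the animals with the highest summed hepatocyte level and Slc7a13. The means, 4.75 ± 0.80 and 4.70 ± 0.65 (SD, n = 3 each), differed by −0.04 ± 0.49 (SE), with a 95% interval from −1.23 to 1.15 and an adjusted limma p of 0.988. A second Gclc probe had the same highest animals, with −0.66, 1.05 and −0.10 against −0.60, 0.15 and 1.18, and its difference had the other sign, 0.15. Without that pair of animals the difference in Gclc was 0.07. The part of other cell types in this pattern was not tested.

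Gclm, the modifier subunit of the same ligase, had 1 probe that was well above background in corn oil animal 2 alone. Slc7a11, the cystine carrier that brings in the cysteine for synthesis, had 3 probes, of which 1 was well above background in corn oil animal 2 and tricresyl phosphate animal 3 and the other two in no animal. Neither gene was tested, and no difference is given for them. Gss, glutathione synthetase, which adds glycine in the last step, was between 3.02 and 3.30 with corn oil and between 2.90 and 3.19 with tricresyl phosphate, and the groups overlapped. Ggt1, the brush border enzyme that starts the breakdown of glutathione, was at 5.22, 5.43 and 5.25 against 5.06, 5.29 and 5.05. Its lowest values were those of treated animals 1 and 3, but animal 2 lay among the controls. The Ggt1 difference was −0.17 ± 0.11 (SE), with an unadjusted limma p of 0.171 and an adjusted p of 0.811. It was −0.065 without the pair and −0.071 under quantile normalization.

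Of the 5 genes grouped under glutathione and thioredoxin reduction, the 2 reductases, Gsr and Txnrd1, had a higher mean. The other 3, Txn1, Srxn1 and Prdx1, had a lower mean, and the median difference over the 5 was −0.14. Gsr, glutathione reductase, was at 0.69, 0.75 and 0.78 with corn oil and at 0.82, 0.78 and 0.92 with tricresyl phosphate. The highest control and the lowest treated animal met, and the difference was 0.10 ± 0.08 (SE), at an adjusted limma p of 0.834, and it was 0.064 without the pair. Txnrd1, the cytosolic thioredoxin reductase and a selenoprotein, was at 0.88, 1.28 and 0.98 against 1.05, 1.28 and 1.26. The groups overlapped, the difference was 0.15 ± 0.14 (SE), and the other 3 probes of the gene gave differences from −0.10 to 0.11. Without the pair the Txnrd1 difference was 0.23. Txn1, cytosolic thioredoxin, was at 7.12, 7.03 and 6.91 with corn oil and at 6.96, 6.89 and 6.78 with tricresyl phosphate. Its difference of −0.14 ± 0.10 (SE) came with overlapping groups and an adjusted limma p of 0.814, and it was −0.089 without the pair and −0.020 under quantile normalization.

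Prdx1, a peroxiredoxin that removes hydrogen peroxide at the cost of thioredoxin, was at 5.44, 5.44 and 5.22 against 5.38, 5.02 and 4.92. The lowest values were those of treated animals 2 and 3, while animal 1 lay within the controls. The difference was −0.26 ± 0.15 (SE), 0.837-fold, with an adjusted limma p of 0.811, and without corn oil animal 2 and tricresyl phosphate animal 3 it was −0.13. Srxn1, sulfiredoxin, which repairs over-oxidised peroxiredoxins, spread more: 1.41, 0.62 and 1.81 with corn oil and 1.02, 0.90 and 1.27 with tricresyl phosphate. All treated animals fell inside the range of the controls. The groups differed by −0.22 ± 0.31 (SE), at an adjusted limma p of 0.893, and by −0.65 without that pair of animals. A second, dimmer Srxn1 probe differed by −0.06.

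Glutathione peroxidases, which reduce peroxides with glutathione, split evenly, 2 higher and 2 lower. Gpx1, the cytosolic form, was at 8.45, 8.22 and 8.20 with corn oil and at 8.44, 8.38 and 8.31 with tricresyl phosphate. Corn oil animal 1 was the highest of all and the other two controls were the lowest. The difference was 0.09 ± 0.10 (SE) over all animals and 0.17 on the shared slide, where that animal is absent. Gpx3, the secreted plasma form, which is made largely in the proximal tubule, was at 8.11, 8.06 and 8.26 against 8.35, 8.23 and 8.20. Corn oil animal 3 lay among the treated animals, and the groups differed by 0.12 ± 0.10 (SE), at an adjusted limma p of 0.826. Under quantile normalization the Gpx3 difference was larger, 0.24, and did not pass either. Gpx4, which reduces lipid peroxides in membranes, ranged from 7.36 to 7.70 with corn oil and from 7.22 to 7.49 with tricresyl phosphate, with overlap.

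Gpx2, the form best known from gut epithelium, varied most among the peroxidases, with a 5.06-fold range over the animals. It was at 3.92, 2.84 and 5.17 in the corn oil animals and at 3.58, 3.69 and 4.16 in the treated ones. Both the highest and the lowest value belonged to controls, animals 3 and 2. The difference was −0.17 ± 0.57 (SE), with a 95% interval from −1.55 to 1.22. The other Gpx2 probes had the same highest and lowest animal and differences of −0.12 and −0.09. Without corn oil animal 2 and tricresyl phosphate animal 3 the Gpx2 difference was −0.91, with an adjusted limma p of 0.958.

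The 12 cytosolic and mitochondrial glutathione transferases, which join glutathione to electrophiles, had 7 higher and 5 lower means, with a median difference of 0.0030. Gsta4, whose product handles the lipid aldehyde 4-hydroxynonenal, had the lowest difference of all members. Its level was 6.78, 6.83 and 6.49 with corn oil and 6.30, 6.53 and 6.13 with tricresyl phosphate. Corn oil animal 3 lay just under treated animal 2, so that the groups overlapped. The means were 6.70 ± 0.19 and 6.32 ± 0.20 (SD, n = 3 each), a difference of −0.38 ± 0.15 (SE), 0.770-fold. The unadjusted limma p was 0.0429 and the adjusted p 0.811. Without corn oil animal 2 and tricresyl phosphate animal 3 the Gsta4 difference was −0.21.

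Gsta2, an alpha-class transferase of the proximal tubule and liver, was at 8.06, 8.16 and 7.81 against 7.65, 7.97 and 7.53. Treated animal 2 lay above corn oil animal 3, and the difference was −0.29 ± 0.15 (SE), 0.817-fold, with an adjusted limma p of 0.811. Without the pair the Gsta2 difference was −0.13. Its close relative Gsta5 was at 8.16, 8.28 and 7.93 against 7.75, 8.14 and 7.58, the same order of animals. The Gsta5 difference was −0.30 ± 0.18 (SE), at an adjusted limma p of 0.811. Its highest and lowest values were those of corn oil animal 2 and tricresyl phosphate animal 3, so that without this pair the difference is smaller. The alpha-class genes are near-identical in places, and cross-hybridisation between their probes was not tested. Gsta3 had a difference of 0.10 ± 0.23 (SE), with 5.58 to 6.30 in the controls and 5.69 to 6.24 in the treated animals. The other Gsta3 probes gave 0.09 and −0.14, and on the shared slide the sign of the main probe turned to −0.083. Without the pair the Gsta3 difference was 0.45.

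Gstp1, the pi-class transferase, was at 5.73, 5.76 and 5.38 with corn oil and at 5.49, 5.38 and 5.19 with tricresyl phosphate. Corn oil animal 3 was at the level of treated animal 2 and below treated animal 1, so that the groups overlapped. The difference was −0.27 ± 0.14 (SE), 0.829-fold, with an adjusted limma p of 0.811. Without corn oil animal 2 and tricresyl phosphate animal 3 it was −0.12. Gstt2, of the theta class, leaned the other way, with 2.44, 2.65 and 2.48 against 2.90, 2.70 and 2.52. Corn oil animal 2 lay above treated animal 3, and the difference was 0.18 ± 0.13 (SE), at an adjusted limma p of 0.814, and 0.34 without the pair.

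Gstm1, Gstm2 and Gstm4, of the mu class, had the same highest and the same lowest animal. Gstm1 was at 1.91, 1.13 and 2.69 in the corn oil animals and at 2.18, 2.20 and 1.52 in the treated ones. Corn oil animal 3 was the highest and corn oil animal 2 the lowest, a 2.94-fold range, and tricresyl phosphate animal 3 was the lowest of its group. The difference of 0.06 ± 0.41 (SE) had a 95% interval from −0.95 to 1.06, and it was −0.11 without corn oil animal 2 and tricresyl phosphate animal 3. Gstm2 was at 0.60, 0.21 and 1.17 against 0.87, 1.05 and 0.71, with the same highest and lowest animal. Gstm4 was at 0.70, 0.34 and 1.26 against 0.82, 0.73 and 0.48, again with corn oil animals 3 and 2 at the ends. These genes are close copies of each other, and how far their probes share targets was not tested. Gstm5, also of the mu class, did not follow them: it stayed between −3.24 and −3.03 in all 6 animals.

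The remaining transferases overlapped between groups. Gstt1 lay between 2.93 and 3.41 with corn oil and between 2.79 and 3.33 with tricresyl phosphate. Gstk1, the mitochondrial kappa-class form, lay between 2.89 and 3.08 and between 2.91 and 3.07. Gsto1, the omega-class form, lay between 4.42 and 4.80 and between 4.58 and 5.14. Among the membrane-bound microsomal transferases, Mgst1 and Mgst2 had differences of 0.05 ± 0.12 (SE) and 0.21 ± 0.21 (SE), and Mgst3 had one of −0.04 ± 0.10 (SE). Without the pair Mgst1 differed by 0.17 and Mgst2 by 0.34. Mgst2 was dim, between −5.06 and −4.32, and with normexp background correction and quantile normalization its difference was 0.064. Mgst3 turned positive, to 0.071, under quantile normalization.

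**Figure D2:**
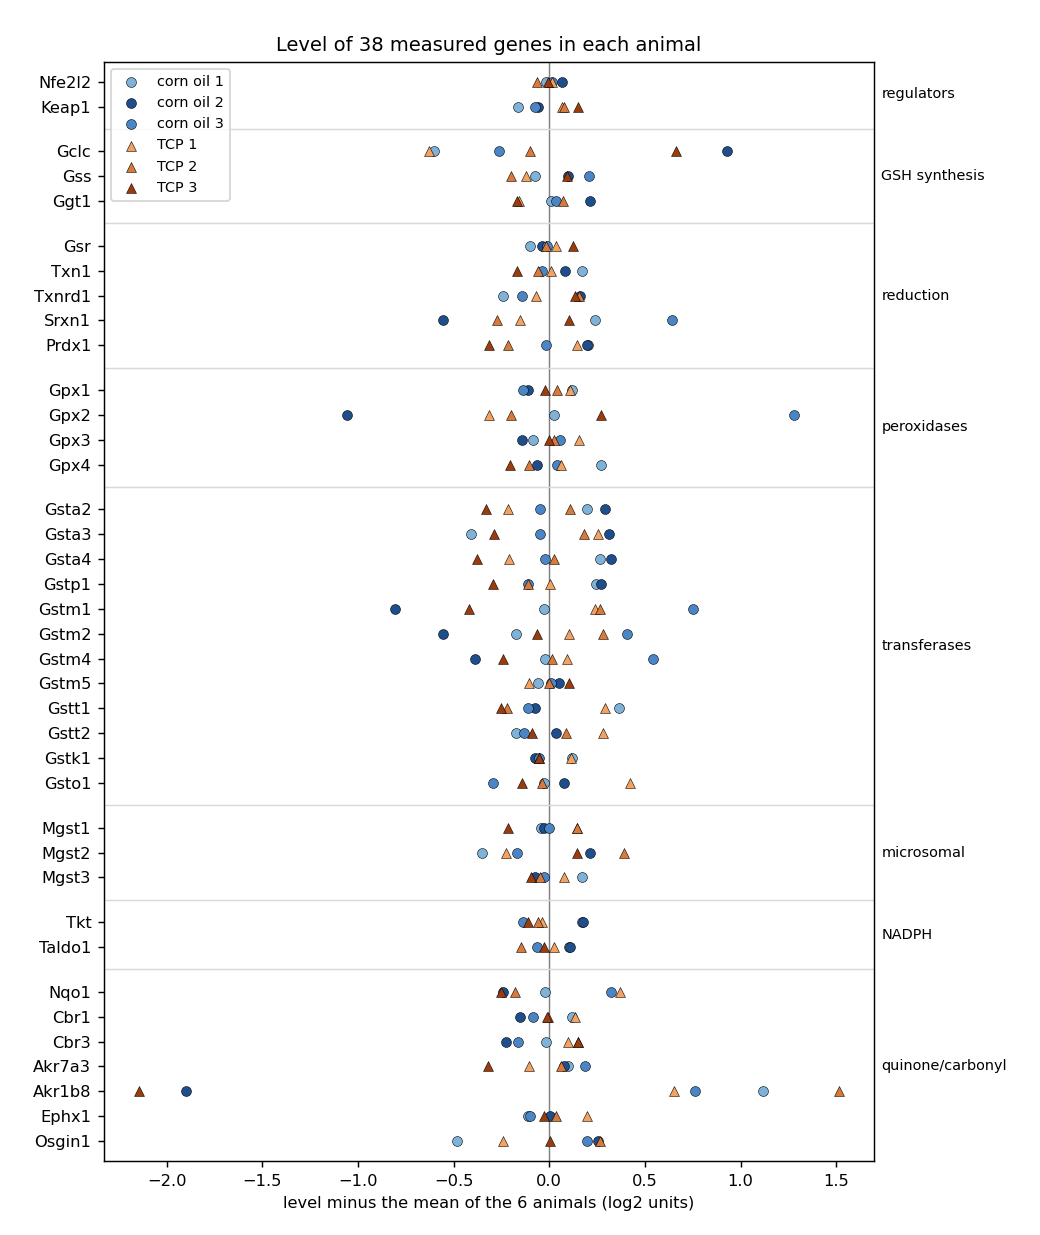
Level of each of the 38 tested genes in every animal, as the difference from the mean of the 6 animals (log2 units, x axis), with circles for corn oil and triangles for tricresyl phosphate (TCP) and a shade for each animal. Most genes lie within 0.5 of 0 in every animal, while Akr1b8, Gclc, Gpx2, Gstm1, Gstm2, Gstm4 and Srxn1 spread further, with corn oil animal 2 at an end of the range in 6 of these 7 genes.

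Of the genes listed under NADPH supply, Tkt and Taldo1 were tested, transketolase and transaldolase of the pentose phosphate pathway. Pgd, listed with them, had no matched probe, and the levels of Tkt and Taldo1 do not measure how much NADPH was made. Tkt lay between 7.45 and 7.76 with corn oil and between 7.47 and 7.54 with tricresyl phosphate, a difference of −0.14 ± 0.11 (SE). Taldo1 lay between 5.14 and 5.31 and between 5.05 and 5.23, a difference of −0.10 ± 0.10 (SE). Under quantile normalization these differences were −0.026 and −0.0037, and without the pair that of Tkt was −0.066.

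Among the 7 quinone, carbonyl and epoxide enzymes 5 had higher means. Nqo1, NAD(P)H quinone dehydrogenase, is widely used as a readout of NRF2 activity. It was at −2.97, −3.19 and −2.62 with corn oil and at −2.58, −3.12 and −3.20 with tricresyl phosphate. The lowest and the highest value both belonged to treated animals, 3 and 1. The difference was −0.04 ± 0.22 (SE), with a 95% interval from −0.57 to 0.49 and an adjusted limma p of 0.975. A second, dimmer Nqo1 probe had another order, highest in corn oil animal 3 (−4.25) and lowest in treated animal 2 (−5.17). Its difference was −0.10.

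Cbr3, a carbonyl reductase, had the smallest p of the members. It was at −1.72, −1.93 and −1.87 with corn oil and at −1.60, −1.55 and −1.55 with tricresyl phosphate. Every treated animal lay above every control. The means were −1.84 ± 0.11 and −1.57 ± 0.03 (SD, n = 3 each), a difference of 0.27 ± 0.09 (SE), 1.2-fold, with an unadjusted limma p of 0.0244 and an adjusted p of 0.811. On the shared slide the Cbr3 difference was 0.33, and without corn oil animal 2 and tricresyl phosphate animal 3 it was 0.21. Its relative Cbr1 had a difference of 0.08 ± 0.11 (SE) with overlapping groups, and of 0.049 without the pair. The other Cbr1 probes differed by 0.18 and 0.23, with every treated animal above every control in both, and the mean over the 3 probes differed by 0.16.

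Akr7a3, an aldo-keto reductase that reduces aflatoxin dialdehyde, was at 6.88, 6.86 and 6.97 against 6.68, 6.85 and 6.47. The treated animals all lay below the controls, animal 2 by a narrow margin. The difference was −0.24 ± 0.12 (SE), 0.846-fold, with an adjusted limma p of 0.811, and it was −0.12 under quantile normalization. Ephx1, microsomal epoxide hydrolase, was at 3.13, 3.24 and 3.14 with corn oil and at 3.43, 3.27 and 3.21 with tricresyl phosphate. Corn oil animal 2 lay above treated animal 3, and the difference was 0.14 ± 0.10 (SE), at an adjusted limma p of 0.814, and 0.22 without the pair. Osgin1, an oxidative stress-induced growth inhibitor, ranged from −0.25 to 0.48 in the controls and from −0.01 to 0.50 in the treated animals.

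Akr1b8, an aldo-keto reductase that reduces aldehydes with NADPH, varied more between animals than any other member, with a 12.6-fold range. It was at 3.17, 0.15 and 2.81 in the corn oil animals and at 2.70, 3.56 and −0.09 in the treated ones. Corn oil animal 2 and tricresyl phosphate animal 3 were both low, and the other 4 animals lay between 2.70 and 3.56. Those low animals were the ones with the highest Alb, Slc7a13 and Gclc. Only 0.335% of all genes had a larger SD within groups. The group means were 2.04 ± 1.65 and 2.06 ± 1.91 (SD, n = 3 each), a difference of 0.01 ± 1.18 (SE). Without that pair the difference was 0.14, with an adjusted limma p of 0.975. What sets the level of Akr1b8 in those animals was not tested.

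**Figure D3:**
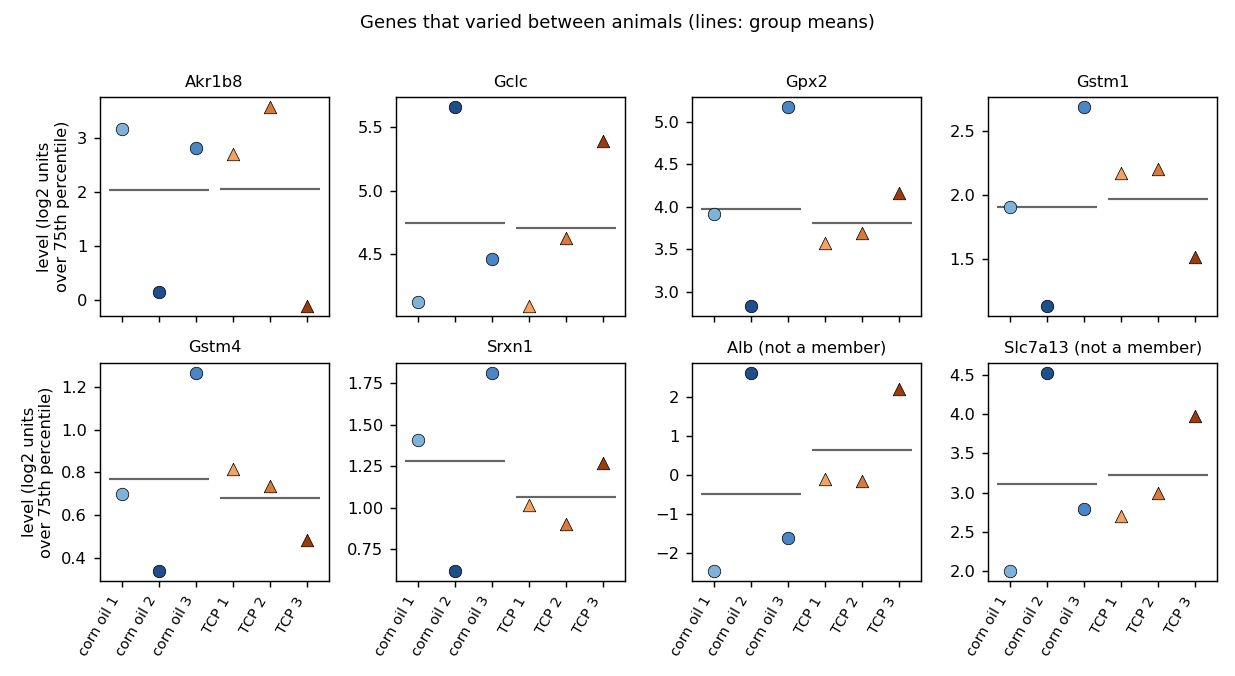
Level in each animal (log2 units over the array's 75th percentile, y axis) of 6 members with a large spread, Akr1b8, Gclc, Gpx2, Gstm1, Gstm4 and Srxn1, and of the markers Alb and Slc7a13, with group means as lines and TCP for tricresyl phosphate. Corn oil animal 2 and tricresyl phosphate animal 3 are the highest in Gclc, Alb and Slc7a13 and the lowest in Akr1b8, at 0.15 and −0.09, and in Gstm1 and Gstm4.

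Counted over the members, corn oil animal 2 was the highest or the lowest of the 6 animals in 19 of 38 genes (50%), against 31.7% of all genes. For tricresyl phosphate animal 3 the counts were 17 of 38 (44.7%) and 42.3%, and for corn oil animal 1 they were 15 of 38 (39.5%) and 41.7%. Tricresyl phosphate animal 3 was the lowest in 13 members and the highest in 4. The mean level over the 38 members was 3.42, 3.33 and 3.48 in the corn oil animals and 3.44, 3.45 and 3.27 in the treated ones, with overlap. Among the 17 members with several usable probes, 3 had probes whose differences were of opposite sign: Gclc, Txnrd1 and Gsta3.

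A wider list of 79 pathway genes outside the members gave 72 tested genes, of which 27 were higher and 45 lower, with a median difference of −0.03. None passed the threshold, and 2 of the 72 (2.78%) had an unadjusted limma p under 0.05, against 5.49% of all genes. The groups did not overlap in 5 higher genes (6.94%, against 3.84% of all genes) and 10 lower genes (13.9%, against 7.94%). Hmox1, heme oxygenase and a classical NRF2 target, was at −1.18, −0.92 and −1.37 with corn oil and at −1.03, 1.60 and −0.55 with tricresyl phosphate. Its difference of 1.16 ± 0.67 (SE) rested on treated animal 2, and without that animal it was 0.36. Me1, malic enzyme, which supplies NADPH, had a difference of 0.13 ± 0.26 (SE), and of 0.26 without the pair.

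The smallest p-values among these pathway genes belonged to lower genes. Esd, which hydrolyses S-formylglutathione, was at 5.79, 5.82 and 5.70 against 5.63, 5.52 and 5.44. Every treated animal lay below every control, and the difference was −0.24 ± 0.09 (SE), with an unadjusted limma p of 0.0372 and an adjusted p of 0.811. Rbx1, the RING subunit of the ligase through which KEAP1 acts, was at 4.21, 4.16 and 4.26 against 4.06, 3.96 and 3.99. It too was lower in every treated animal, by −0.21 ± 0.08 (SE), with an unadjusted limma p of 0.0433 and an adjusted p of 0.811. Sod1, cytosolic superoxide dismutase, had a difference of −0.26 ± 0.11 (SE), and Abcc2, an export pump for glutathione conjugates, one of −0.39 ± 0.17 (SE), both with groups that did not overlap. Without the pair these differences were −0.15 and −0.16, and without tricresyl phosphate animal 3 alone that of Abcc2 was −0.20.

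Of 5 blood markers 4 were tested, of which 3 had a lower and 1 a higher mean with tricresyl phosphate, none past the threshold. Their summed level ran from 537 to 602 with corn oil and from 432 to 544 with tricresyl phosphate. Hbb, a beta-globin gene, was at 7.63, 7.48 and 7.46 against 7.40, 7.09 and 7.06. Alas2, which makes heme precursors in red cells, was at 0.98, 0.76 and 0.88 against 0.65, 0.51 and 0.43. In both genes every treated animal lay below every control, by −0.34 ± 0.12 (SE) in Hbb and −0.34 ± 0.10 (SE) in Alas2, each with an adjusted limma p of 0.811. The part of blood in the levels of the members and of the further pathway genes was not tested.

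**Figure D4:**
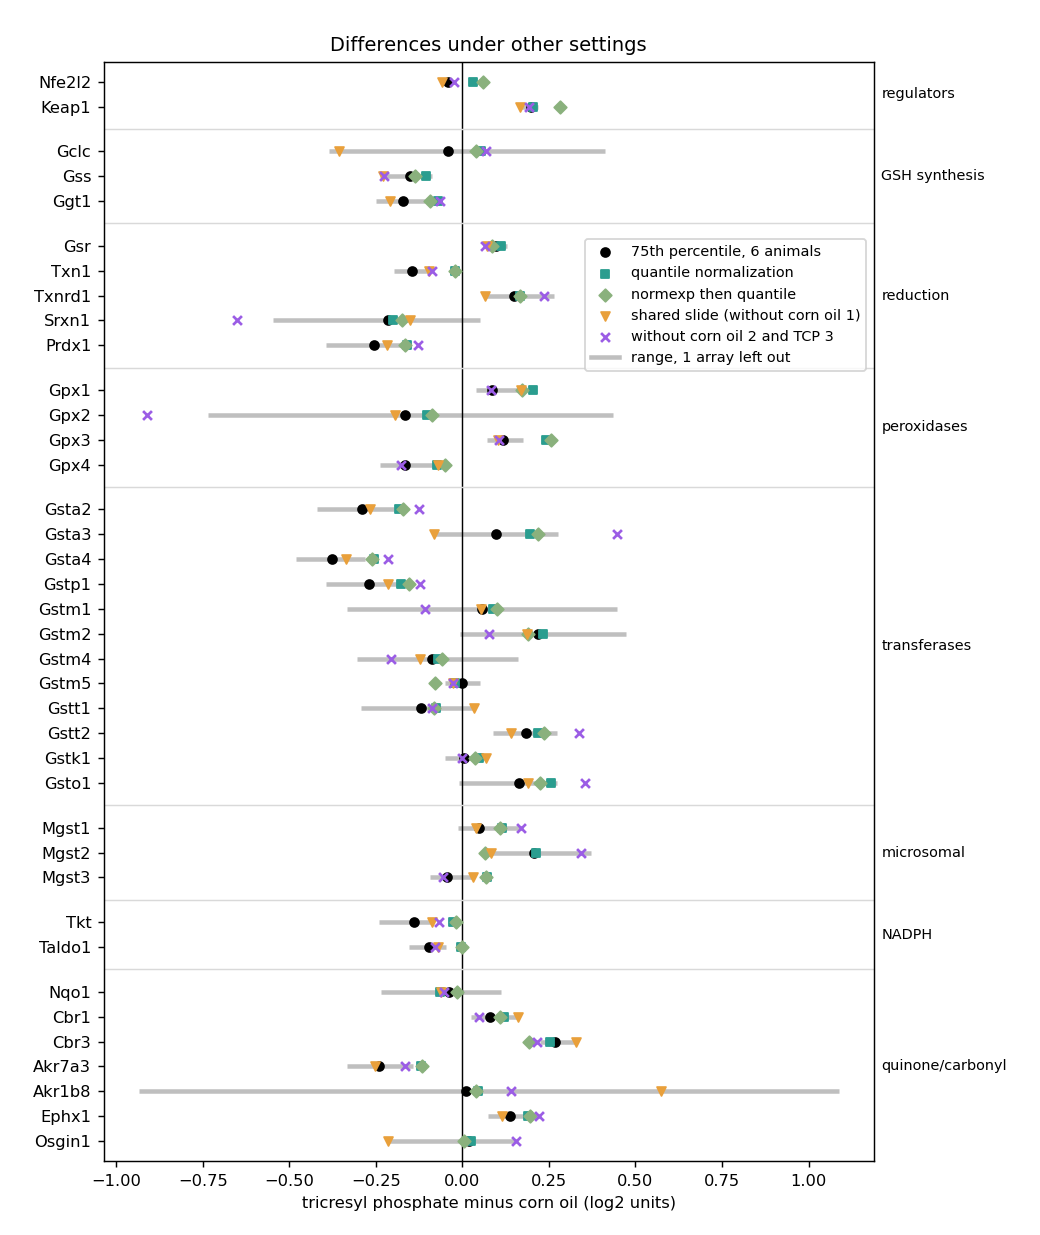
Difference between tricresyl phosphate (TCP) and corn oil (log2 units, x axis) for the 38 tested genes under 5 settings, with the range over leaving out 1 array as a grey bar. Keap1 and Cbr3 stay above 0 and Gsta4, Gsta2, Gstp1, Prdx1 and Akr7a3 below 0 in every setting drawn, while Akr1b8 ranges from −0.93 to 1.09. Many other genes also keep their sign, among them Gss, Ggt1, Txn1, Gpx3, Gstt2 and Ephx1.

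Quantile normalization brought several of the lower genes nearer to 0 without turning their sign. The difference was −0.18 in both Gsta2 and Gstp1, −0.16 in Prdx1, −0.073 in Gpx4, −0.12 in Sod1 and −0.14 in both Esd and Rbx1. On the shared slide, without corn oil animal 1, it was −0.36 in Gclc, 0.57 in Akr1b8, 0.064 in Txnrd1, −0.096 in Txn1, 0.081 in Mgst2, −0.088 in Tkt, 0.16 in Cbr1 and 0.29 in Me1.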

How the data were processed

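Cy3-labelled RNA from renal cortex was hybridised to 6 Agilent arrays, 1 per animal. The authors quantified the arrays with Agilent Feature Extraction. The submitters' processing notes name version 10.7, and the headers of the files 10.7.1.1. The deposited processed signal is a linear intensity, background-subtracted and detrended per the file headers. The authors' value table is also an intensity, which for each array is the processed signal over a constant near its 75th percentile, with column medians from 0.109 to 0.115. Its scale is thus linear, uncentred and single-channel. The RNA came from separate animals. The median processed signal was 102.6 to 133.2 over a local background of 33 to 41, and the number of arrays limits the precision.

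Control spots (1439) were left out, 77 outlier spots were set missing, and 0 were saturated. Levels are log2 processed signals minus the array's 75th percentile over non-control probes. A probe was kept if well above background on at least 3 of 6 arrays, and each gene is represented by its kept probe with the highest mean. Accessions were matched to RefSeq GRCr8 symbols: 28206 probes had 1 symbol, 0 several and 33331 none. The headers name another build, rn4, and none of its coordinates are used. The groups were compared by a two-sided test in limma 3.58.1 (R 4.3.3), with p-values adjusted by Benjamini-Hochberg over all 31637 genes and a threshold of 0.05. The script was tested on simulated data.

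Members and lists were chosen with earlier results of these data known. Every-animal values are given for 15 members chosen by role, the 10 with the smallest p and the 5 with the largest SD. Of the 15, Gclm, Slc7a11 and Pgd were not tested and have no such values. Those of Gstm2 and Gstm4 were added after they were seen. Further pathway genes named are Hmox1, Me1 and the 4 with the smallest p, plus Gsta5, chosen after its value was seen; some genes are not reported here. Alternatives were other scalings, background correction by normexp with an offset of 50 on the median spot signal, the authors' table, other filters, probe rules and variance models, slide and replicate as blocks, and leaving out animals.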

Additional observations from a re-analysis of the deposited data

How the results depend on the processing

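No member or further pathway gene passed the adjusted threshold under any alternative. The count of all genes passing was 0, and it was 2 with normexp, 2 with a trended and robust variance, and between 0 and 1 when 1 array was left out (1 without tricresyl phosphate animal 2 and 1 without animal 3). At an adjusted p under 0.10 it was still 0. Members at an unadjusted limma p under 0.05 numbered 2, against 1 with no filter on dim probes, 4 with the trended variance, 1 with the slide as a block, 1 without corn oil animal 2 and tricresyl phosphate animal 3, and 0 to 4 when 1 array was left out. They were 0 without tricresyl phosphate animal 3, 1 without corn oil animal 1 or 2, 3 without tricresyl phosphate animal 2 and 4 without corn oil animal 3. The replicate block gave 0 genes called, 1927 at an unadjusted p under 0.05 against 1737, and 3 such members. The replicate numbers did not pair the animals: correlations of their deviations were 0.086, −0.051 and −0.044, not every animal correlated best with its own number, and the block reversed no sign.

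Quantile normalization moved the members' median to 0.04 and the split to 21 higher and 17 lower, and reversed Nfe2l2 (0.032), Gclc (0.054), Gstm5 (−0.023) and Mgst3 (0.071). The corresponding values with normexp were 0.061, 0.039, −0.078 and 0.067. The mean over probes reversed Gclc (0.052). The slide block reversed Gsta3 (−0.083), Gstm5 (−0.028), Gstt1 (0.035), Mgst3 (0.029) and Osgin1 (−0.215). Leaving out that pair of animals reversed Gclc (0.068), Gstm1 (−0.108), Gstm5 (−0.027) and Gstk1 (−0.0015). The cause was not tested.

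Leaving out 1 array at a time, the members' median ran from −0.049 to 0.053, that of the pathway genes from −0.048 to −0.021, and the count of members higher from 14 to 22. Single genes ran from −0.385 to 0.411 (Gclc), −0.548 to 0.050 (Srxn1), −0.736 to 0.434 (Gpx2), −0.083 to 0.276 (Gsta3), −0.333 to 0.446 (Gstm1), −0.0075 to 0.473 (Gstm2), −0.304 to 0.160 (Gstm4), −0.051 to 0.052 (Gstm5), −0.294 to 0.035 (Gstt1), −0.0496 to 0.067 (Gstk1), −0.0093 to 0.275 (Gsto1), −0.012 to 0.169 (Mgst1), −0.094 to 0.029 (Mgst3), −0.234 to 0.111 (Nqo1), −0.935 to 1.087 (Akr1b8), −0.215 to 0.152 (Osgin1) and −0.059 to 0.374 (Me1).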
